A study of Arabidopsis thaliana with 3 samples.

Results

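WRKY proteins are plant transcription factors, and 48 of their genes in Arabidopsis thaliana, given as a list of loci, were followed here through an RNA-seq comparison of 2 mutants with the wild type. All 48 loci were found in the deposited table of 33559 loci, each with 1 entry and with a value above 0 in every library. Poly(A) RNA came from whole 14-day-old seedlings grown on agar plates, all of ecotype Col. The mutants were mms19-1, a T-DNA insertion line of MMS19, which encodes a factor of cytosolic iron-sulfur cluster assembly, and abo4, which carries a weak missense allele of the gene for the catalytic subunit of DNA polymerase epsilon, a gene whose null alleles are lethal to embryos. The label and the methods name mms19-1, but the text of the study also names mms19-2, another insertion line, for this comparison, so which of these alleles was sequenced cannot be told apart here. Col was the wild type, and no group received any treatment. Each genotype had 1 library, so no ratio has a replicate check, no p-value is given, and the 95% intervals cover the counting error of estimated reads only. How many seedlings were pooled is not given in the sources used here. The study asked whether loss of MMS19 and a weakened ABO4 change the same genes.

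A WRKY protein carries a zinc finger and, before it, the heptad WRKYGQK, and the domain binds the W box, a DNA element with the core TTGAC. Many members are induced within hours by pathogens, salicylic acid or wounding, act downstream of mitogen-activated protein (MAP) kinases, and switch defence genes or one another's genes on or off, while others work in senescence, trichomes or phosphate supply. The family is divided by domain into group I with a pair of domains, groups IIa to IIe with 1 domain, and group III with a different zinc finger.

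The heptads are shown because they are what makes these loci one family and what separates its subgroups. In the RefSeq proteins of the TAIR10.1 assembly, all 48 members had a heptad, and the 9 genes of group I had 2 each, while the other 39 had 1. The zinc finger was of the C2HC type in all 9 genes of group III and of the C2H2 type elsewhere. The sixth residue, in capitals in the codons below, was glutamine (CAA or CAG) except in WRKY50 and WRKY51, where it was lysine (AAG) and the heptad read WRKYGKK. The stretches of 21 nt start at residue 189 and residue 367 of WRKY33, at chr2:16109358-16109378 and chr2:16109982-16110002 on the plus strand, at residue 115 of WRKY62, at chr5:351565-351585 on the minus strand, at residue 118 of WRKY50, at chr5:9147579-9147599 on the minus strand, and at residue 115 of WRKY51, at chr5:25908864-25908884 on the plus strand.
WRKY33, first heptad: tggagaaagtacggaCAAaaa
WRKY33, second heptad: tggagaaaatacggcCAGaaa
WRKY62: tggaggaaatacggaCAAaag
WRKY50: tggagaaagtatgggAAGaag
WRKY51: tggaggaagtatggcAAGaaa

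The W-box core stands before many WRKY genes themselves. In the 250 nt before the annotated gene start, TTGAC on either strand occurred in 26 of 48 members (54.2%), against 44.9% of 27443 protein-coding genes, and at least 2 copies stood in 13 members (27.1%), against 14.1% of all protein-coding genes. The longer forms TTGACC or TTGACT, which contain the core, occurred in 17 members (35.4%), against 28.4% of all protein-coding genes. WRKY29 had 4 cores, and WRKY11, WRKY12, WRKY30 and WRKY45 had 3 each. Of the 13 members that passed the 2-fold limit in at least 1 mutant, 10 had a core and 4 had a longer form, and of the 35 that did not, 16 had a core and 13 a longer form. A match describes letters only. The 4 windows below belong to the members past the limit that hold a longer form, and the other 9 members past it held none: WRKY62 (chr5:352096-352345, minus strand) and WRKY30 (chr5:8154711-8154960, minus strand), both higher in abo4, WRKY33 (chr2:16107985-16108234, plus strand), lower in both mutants, and WRKY53 (chr4:12393983-12394232, minus strand), lower in mms19-1. They are RefSeq sequence of TAIR10.1 on the strand of the gene, with TTGAC and its reverse complement GTCAA in capitals.
WRKY62: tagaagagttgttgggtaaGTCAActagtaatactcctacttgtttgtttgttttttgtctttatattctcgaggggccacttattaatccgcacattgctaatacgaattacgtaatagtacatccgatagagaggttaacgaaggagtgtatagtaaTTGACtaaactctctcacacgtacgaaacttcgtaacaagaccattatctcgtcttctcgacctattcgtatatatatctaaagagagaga
WRKY30: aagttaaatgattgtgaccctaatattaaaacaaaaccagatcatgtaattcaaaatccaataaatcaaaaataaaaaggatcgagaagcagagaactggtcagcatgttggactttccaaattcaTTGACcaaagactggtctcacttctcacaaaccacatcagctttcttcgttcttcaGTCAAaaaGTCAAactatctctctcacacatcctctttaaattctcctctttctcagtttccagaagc
WRKY33: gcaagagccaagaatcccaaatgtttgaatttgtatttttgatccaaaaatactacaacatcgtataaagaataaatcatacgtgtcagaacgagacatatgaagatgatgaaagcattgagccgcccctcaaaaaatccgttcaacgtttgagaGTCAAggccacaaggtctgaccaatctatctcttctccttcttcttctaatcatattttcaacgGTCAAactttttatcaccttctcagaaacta
WRKY53: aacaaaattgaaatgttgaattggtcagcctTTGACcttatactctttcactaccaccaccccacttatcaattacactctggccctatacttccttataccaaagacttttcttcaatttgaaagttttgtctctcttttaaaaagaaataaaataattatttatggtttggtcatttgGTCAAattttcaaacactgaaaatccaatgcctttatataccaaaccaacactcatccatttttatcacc
WRKY30 held 3 cores, all of the longer forms, and each of the other windows held 2, also of the longer forms.

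The libraries were of similar depth, with 51350000 reads in mms19-1, 49600000 in abo4 and 56100000 in Col as recovered from the FPKM values (fragments per kilobase of transcript, scaled to the mapped reads of the library). MMS19 (AT5G48120) stood at 0.228 FPKM in mms19-1, 9.01 FPKM in abo4 and 10.1 FPKM in Col, which follows the mms19-1 label. ABO4 (AT1G08260) stood at 6.95, 8.09 and 5.03 FPKM in mms19-1, abo4 and Col, and a missense allele need not lower its transcript. Root markers summed over 8 genes to 83.2 FPKM in mms19-1, 76.5 in abo4 and 83.5 in Col, and leaf markers over 6 genes to 39665 FPKM in mms19-1, 42432 in abo4 and 39915 in Col. RBCS1A alone held 18809 FPKM of the leaf sum in mms19-1, 19168 in abo4 and 16752 in Col. Log2 ratios to Col of single root markers ran from -0.33 to 0.08 in mms19-1 and from -1.49 (GL2) to 0.20 in abo4. Those of leaf markers ran from -0.32 to 0.17 in mms19-1 and from -0.11 to 0.26 in abo4. All 7 floral organ genes listed passed 2-fold upward in each mutant, with sums of 16.4 FPKM in mms19-1 and 23.9 FPKM in abo4, against 3.22 FPKM in Col. The part of floral tissue in the WRKY values was not tested, and in whole seedlings fewer cells of a type and less RNA per cell cannot be told apart.

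Transcript levels differed widely among the 48 members. They lay between 0.0504 and 70.1 FPKM in mms19-1, between 0.238 and 55.6 FPKM in abo4 and between 0.131 and 144 FPKM in Col. At least 10 FPKM was reached by 19 members in mms19-1, 22 in abo4 and 21 in Col, and values below 1 FPKM were found for 9 members in mms19-1, 5 in abo4 and 8 in Col. The summed level of the 48 members was 608 FPKM in mms19-1, 635 FPKM in abo4 and 754 FPKM in Col. The 3 most abundant members of each library held 28.5% of that sum in mms19-1, 24.1% in abo4 and 38.2% in Col. Groups IId and I had the highest median levels, 23.5 and 19.7 FPKM over the 3 libraries, while group III ran from 0.162 FPKM for its lowest member to 57.3 FPKM for its highest.

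**Figure D1:**
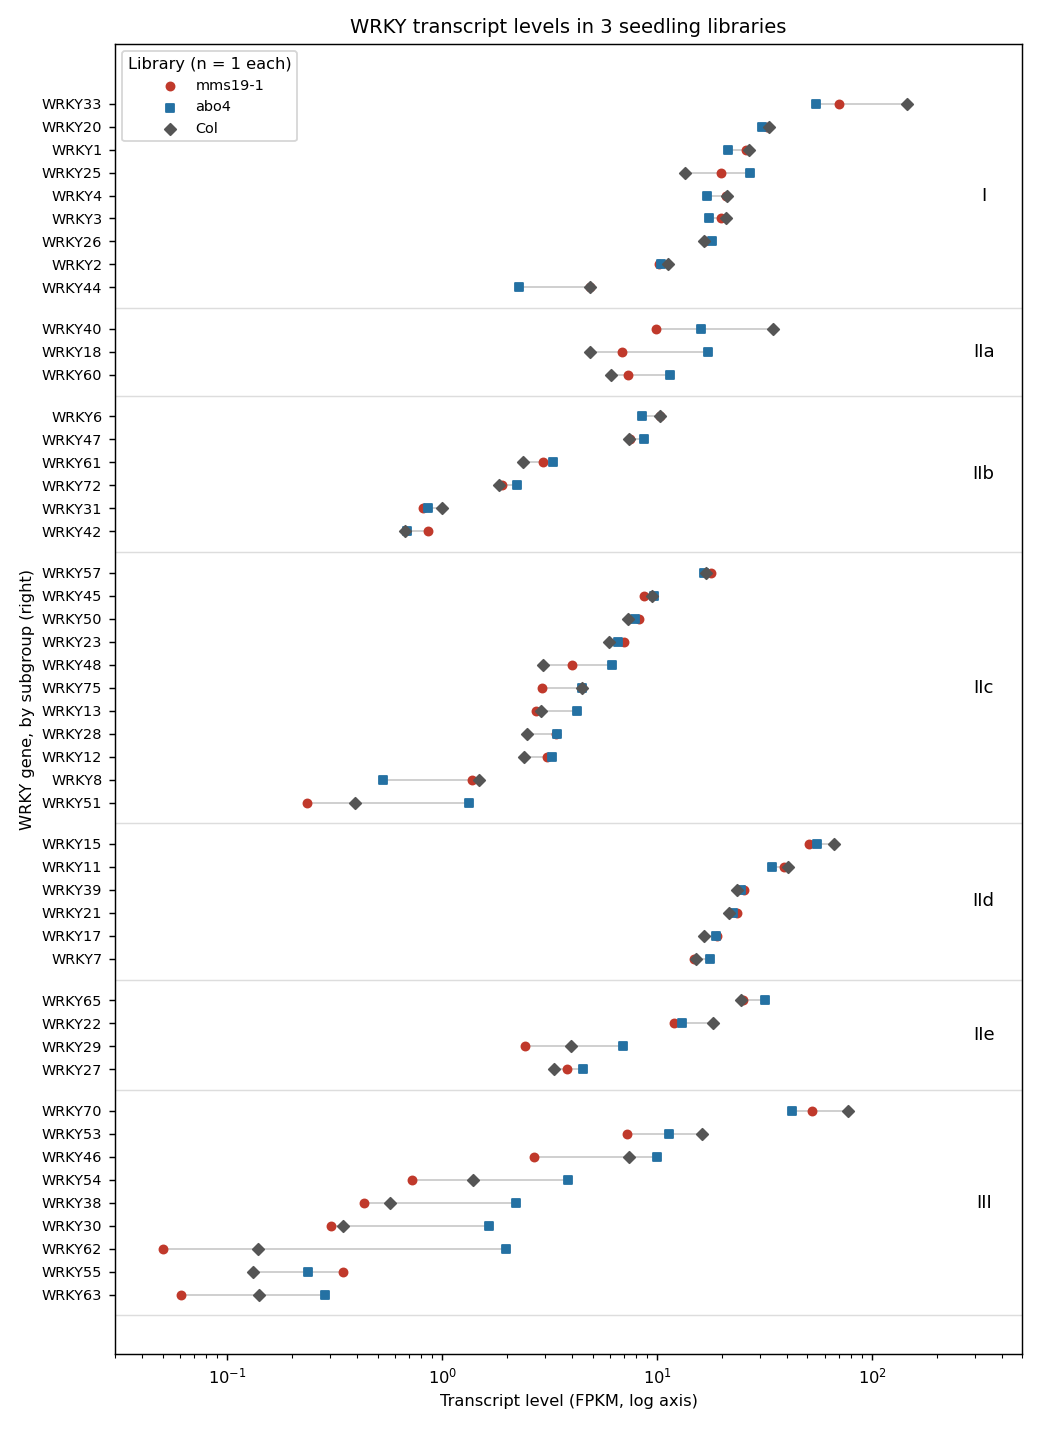
Transcript level of each of the 48 WRKY genes (FPKM, log axis) in mms19-1 (red circles), abo4 (blue squares) and Col (grey diamonds), 1 library each, in order of mean level within the subgroup named at the right; grey lines join the lowest and highest value of a gene. In Col WRKY33 stands highest at 144 FPKM, and the widest gap between libraries is that of WRKY62 in group III, with 0.0504 FPKM in mms19-1 and 1.98 FPKM in abo4.

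A member is called higher or lower here where its ratio of FPKM + 0.1 passed 2-fold, the fold limit that the study also used. In mms19-1 no member was higher than Col and 4 of 48 (8.33%) were lower, namely WRKY33, WRKY40, WRKY46 and WRKY53. Among all 26416 loci with a value above 0 in some library, 2.38% were higher and 1.64% were lower in mms19-1. In abo4 7 of 48 members (14.6%) were higher, against 3.87% of those loci, and 4 of 48 (8.33%) were lower, against 2.58%. The higher members were WRKY62, WRKY30, WRKY18, WRKY38, WRKY51, WRKY54 and WRKY48, and the lower ones WRKY33, WRKY8, WRKY40 and WRKY44. The 48 were listed with earlier results of these data known. Of 24 further WRKY loci in the table, 1 was higher and 0 were lower in mms19-1. In abo4 0 of those 24 were higher and 0 were lower. Both mutant columns were divided by the same Col library, so an error in a Col value enters both ratios of a gene.

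The mms19-1 calls all came from members with a mean of at least 1 FPKM, as did 4 of the 7 abo4 calls above Col. Of the 41 members with a mean of at least 1 FPKM, 4 were lower and 0 were higher in mms19-1, against 0.804% and 1.03% of the 19771 loci at that level. In abo4 4 of the 41 were higher, against 1.92% of loci, and 4 were lower, against 1.9%. The 4 higher ones include WRKY38, whose mean reaches 1 FPKM only through abo4, the library in which it is called. The median log2 ratio of these 41 members was -0.03 in mms19-1 and 0.09 in abo4, beside -0.02 and -0.01 over the 19771 loci, and that of all 48 was -0.03 and 0.13. The median absolute log2 ratio of the 41 was 0.20 in mms19-1 and 0.37 in abo4, beside 0.12 and 0.17 over the 19771 loci. Among all 48, the signs of the mutants were opposite for 14 members, above Col in both for 19 and below Col in both for 15.

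Counting error is a weak filter at this depth. Among the 41 members, the 95% counting interval of the ratio to Col lay above 1 for 10 and below 1 for 11 in mms19-1, against 20.4% and 26.7% of 19699 expressed loci with a read estimate. In abo4 it lay above 1 for 18 members and below 1 for 15, against 28.2% and 31.8% of loci. Within 1.25-fold of Col in both mutants were 19 of the 48 members.

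**Figure D2:**
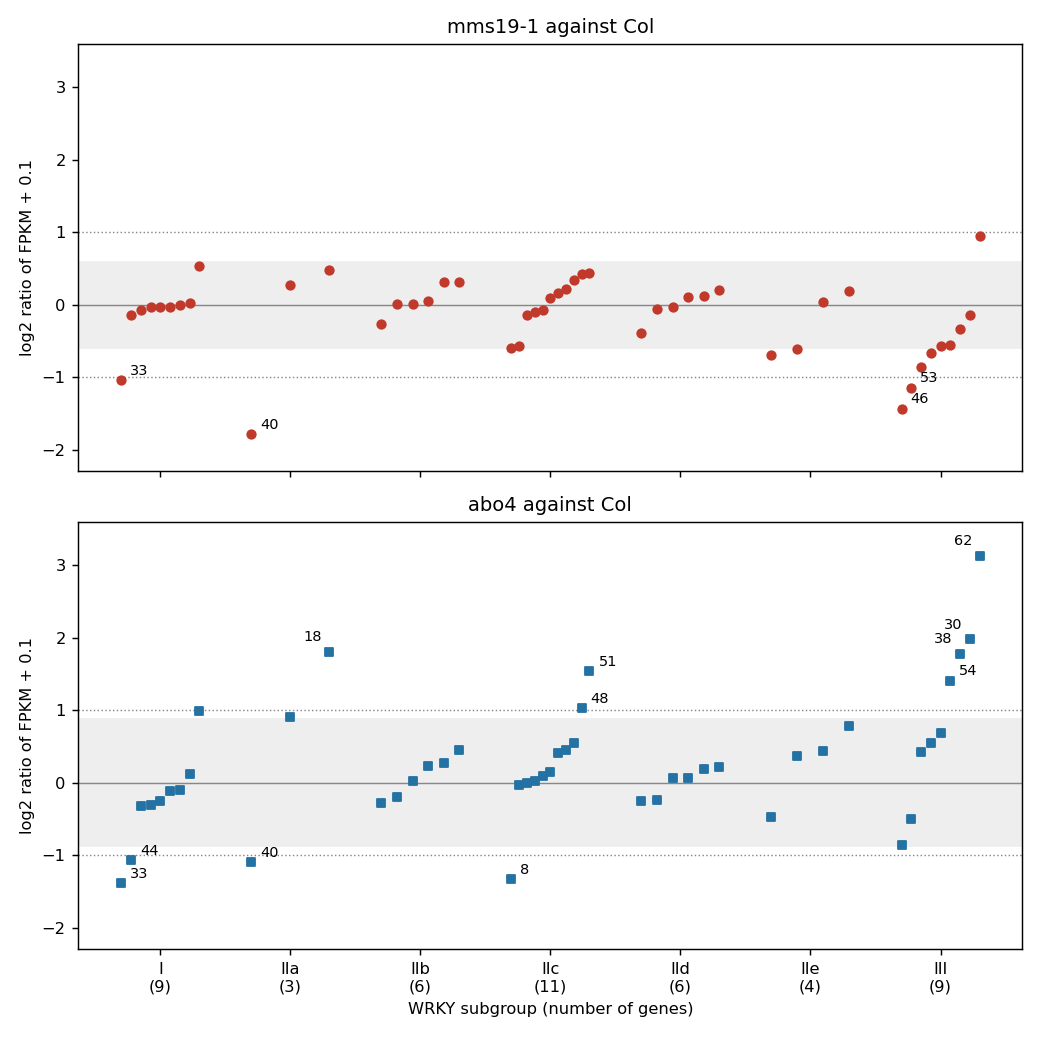
Log2 ratio of FPKM + 0.1 for each WRKY gene in mms19-1 against Col (top) and abo4 against Col (bottom), by subgroup with its number of genes; the grey band holds the middle 95% of the 19771 expressed loci, dotted lines mark 2-fold, and numbers name the genes beyond it (33 is WRKY33). In mms19-1 the 4 named genes lie below the lower line and none above the upper one, and in abo4 4 of the 7 genes above the upper line belong to group III.

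Group III held the widest spread of ratios of the 7 subgroups. Several of these 9 genes act in salicylic acid signalling or senescence. In mms19-1 8 of the 9 had ratios below 1 and the median log2 ratio was -0.57, and 2 passed the limit, both lower. In abo4 7 of the 9 had ratios above 1 and the median was 0.68, and 4 passed the limit, all higher. Of the 19771 expressed loci, 44.9% lay above Col in mms19-1 and 47.9% in abo4. Of the 26416 loci above 0, 1.64% were lower in mms19-1 and 3.87% were higher in abo4. Both medians of group III are the ratios of WRKY63, which rest on 3 reads in mms19-1, 12 in abo4 and 6 in Col. Among the mms19-1 ratios below 1, those of WRKY30, WRKY38, WRKY62 and WRKY63 had counting intervals that spanned 1. Among the abo4 ratios above 1, those of WRKY55 and WRKY63 did. WRKY62 (AT5G01900), which with WRKY38 is a negative regulator of basal defence, stood at 0.0504 FPKM in mms19-1 (about 2 reads), 1.98 FPKM in abo4 (87 reads) and 0.139 FPKM in Col (7 reads). The abo4 library was far above the others, by 14.3-fold over Col with a counting interval of 6.54 to 36.0, and the mms19-1 value, 0.364 of Col with an interval of 0.0316 to 1.64, could not be told from Col at this depth. WRKY38 (AT5G22570) stood at 0.431 FPKM in mms19-1, 2.21 FPKM in abo4 and 0.571 FPKM in Col. It was 3.87-fold higher in abo4 than in Col (2.66 to 5.87), and its mms19-1 interval spanned 1. WRKY30 (AT5G24110), a gene induced by oxidative stress, stood at 0.305, 1.65 and 0.345 FPKM in mms19-1, abo4 and Col. Only the abo4 library was high among the 3, at 4.79-fold over Col (2.95 to 8.12).

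WRKY54 (AT2G40750) and WRKY70 (AT3G56400) are close relatives that restrain leaf senescence and tune salicylic acid responses together. WRKY54 stood at 0.721 FPKM in mms19-1, 3.84 FPKM in abo4 and 1.38 FPKM in Col. It was 2.77-fold higher in abo4 (2.19 to 3.57), and in mms19-1 its value was 0.521 of Col (0.355 to 0.745), inside the limit with 0.1 FPKM added. WRKY70 stood at 52.5 FPKM in mms19-1, 42.4 FPKM in abo4 and 77.0 FPKM in Col. Both mutant libraries lay below Col without passing 2-fold, with log2 ratios of -0.55 in mms19-1 and -0.86 in abo4, so the pair took opposite signs in abo4. WRKY55 (AT2G40740), the neighbour of WRKY54 on chromosome 2, stood at 0.345, 0.238 and 0.131 FPKM in mms19-1, abo4 and Col, from 16, 11 and 7 reads, and both counting intervals spanned 1. WRKY63 (AT1G66600), a gene of abscisic acid responses, was as thinly read, with 3 reads in mms19-1, 12 in abo4 and 6 in Col.

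WRKY46 and WRKY53 were the members lower in mms19-1 alone. WRKY46 (AT2G46400), which with WRKY54 and WRKY70 also serves brassinosteroid-regulated growth, stood at 2.68 FPKM in mms19-1, 9.98 FPKM in abo4 and 7.41 FPKM in Col. Its mms19-1 value was 2.77-fold below Col (2.31 to 3.34), while its abo4 value was 1.35 times that of Col (1.19 to 1.52). WRKY53 (AT4G23810), an activator of leaf senescence, stood at 7.25 FPKM in mms19-1, 11.4 FPKM in abo4 and 16.1 FPKM in Col. Col was the highest of the 3, with a 2.22-fold lower value in mms19-1 (2.0 to 2.47) and a log2 ratio of -0.50 in abo4. WRKY53 overlaps AT4G23800 on the opposite strand by 341 nt, and whether reads were assigned by strand is not given in the sources used here; that neighbour stood at 51.4 FPKM in mms19-1, 51.3 FPKM in abo4 and 55.5 FPKM in Col.

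Group IIa holds WRKY18, WRKY40 and WRKY60, which bind one another and act as partly redundant repressors of defence. They did not move together. WRKY40 (AT1G80840) stood at 9.90 FPKM in mms19-1, 16.0 FPKM in abo4 and 34.4 FPKM in Col, which was the highest library by a wide margin. It was 3.48-fold lower in mms19-1 (3.17 to 3.82) and 2.15-fold lower in abo4 (1.99 to 2.32). WRKY18 (AT4G31800) stood at 6.86 FPKM in mms19-1, 17.3 FPKM in abo4 and 4.88 FPKM in Col. It was 3.54-fold higher in abo4 (3.18 to 3.97) and had a log2 ratio of 0.48 in mms19-1. WRKY60 (AT2G25000) stood at 7.32 FPKM in mms19-1, 11.5 FPKM in abo4 and 6.07 FPKM in Col, inside the limit at log2 ratios of 0.27 and 0.91. Col thus had more WRKY40 than WRKY18 transcript per length, and in abo4 the levels of these genes, 16.0 and 17.3 FPKM, were close. For WRKY40, 58 of 1281 windows of 45 nt (4.53%) also occur elsewhere in the genome, so a few of its reads could have been placed elsewhere; no other member had such a window.

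Group I includes WRKY33 (AT2G38470), the factor that switches on camalexin synthesis against fungi and a substrate of the MAP kinases MPK3 and MPK6. It stood at 70.1 FPKM in mms19-1, 55.0 FPKM in abo4 and 144 FPKM in Col. Both mutants lay well below Col, by 2.06-fold in mms19-1 (2.0 to 2.12) and by 2.63-fold in abo4 (2.54 to 2.71), and with WRKY40 it was 1 of 2 members past the limit in both. The mms19-1 ratio sits at the limit, with a log2 value of -1.04. WRKY33 overlaps an annotated antisense RNA, AT2G08965, by 272 nt, whose level was not analysed here. WRKY25 (AT2G30250), a relative of WRKY33 with roles in heat tolerance, went the other way: it stood at 19.7 FPKM in mms19-1, 26.9 FPKM in abo4 and 13.5 FPKM in Col. Both mutants lay above Col, with log2 ratios of 0.54 and 0.99, and abo4 was just inside the limit. WRKY44 (AT2G37260), known as TTG2 and needed for trichome growth and for mucilage and tannin of the seed coat, stood at 4.88 FPKM in mms19-1, 2.27 FPKM in abo4 and 4.87 FPKM in Col. Only abo4 was low, 2.15-fold below Col (1.80 to 2.56). The other 6 genes of group I (WRKY1, WRKY2, WRKY3, WRKY4, WRKY20 and WRKY26) had log2 ratios between -0.14 and 0.02 in mms19-1 and between -0.32 and 0.13 in abo4.

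In group IIc 3 of 11 genes passed the limit in abo4 and 0 in mms19-1. Of all loci above 0, 3.87% were higher and 2.58% lower in abo4, and 2.38% and 1.64% in mms19-1. WRKY51 (AT5G64810), which with WRKY50 mediates repression of jasmonate signalling when oleic acid is low, stood at 0.234 FPKM in mms19-1, 1.33 FPKM in abo4 and 0.393 FPKM in Col. The abo4 value, from 49 reads, was 3.39-fold above Col (1.94 to 6.53), and its partner WRKY50 stayed within 1.25-fold of Col, at 8.26 FPKM in mms19-1, 7.85 FPKM in abo4 and 7.35 FPKM in Col. WRKY48 (AT5G49520), a repressor of basal defence, stood at 4.02 FPKM in mms19-1, 6.13 FPKM in abo4 and 2.95 FPKM in Col, just past the limit in abo4 with a log2 ratio of 1.03. WRKY8 (AT5G46350), a factor in salt and virus responses, stood at 1.37 FPKM in mms19-1, 0.529 FPKM in abo4 and 1.49 FPKM in Col. It was the only low member of the subgroup in abo4, 2.81-fold below Col (1.85 to 4.33, from 31 and 98 reads). WRKY57 (AT1G69310), the most abundant of the subgroup and a gene of drought tolerance, held 17.9, 16.5 and 16.8 FPKM in mms19-1, abo4 and Col. The remaining genes WRKY12, WRKY13, WRKY23, WRKY28, WRKY45 and WRKY75 had log2 ratios between -0.60 and 0.43 in mms19-1, and in abo4 none was above 0.55 and the lowest, WRKY75, stood level with Col at 4.48 FPKM in each.

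No gene of groups IIb, IId or IIe passed the limit against Col. Among all loci above 0, the share past it ran from 1.64% (lower in mms19-1) to 3.87% (higher in abo4). In group IIe WRKY29 (AT4G23550), which acts with WRKY22 below the flagellin-activated MAP kinases, stood at 2.43 FPKM in mms19-1, 6.92 FPKM in abo4 and 3.98 FPKM in Col, with log2 ratios of -0.69 and 0.78. The mutants lay on opposite sides of Col. WRKY29 shares 251 nt with AT4G23560 on the opposite strand, which stood at 0.0121 FPKM in mms19-1, 0.0125 FPKM in abo4 and 0.0333 FPKM in Col. WRKY22 (AT4G01250) stood at 11.9, 13.1 and 18.2 FPKM in mms19-1, abo4 and Col, lower in both without passing 2-fold. WRKY65 (AT1G29280) was the most abundant of the subgroup, at 25.2 FPKM in mms19-1, 31.7 FPKM in abo4 and 24.5 FPKM in Col. WRKY27, the last of group IIe, had log2 ratios of 0.20 and 0.43. In group IId WRKY15 (AT2G23320), a factor in growth under osmotic and oxidative stress, was the most abundant and the most shifted, with 50.8 FPKM in mms19-1, 55.6 FPKM in abo4 and 66.4 FPKM in Col. The 6 genes of group IId, with WRKY7, WRKY11, WRKY17, WRKY21 and WRKY39, had log2 ratios between -0.39 and 0.21 in mms19-1 and between -0.26 and 0.22 in abo4. In group IIb WRKY6 (AT1G62300), a regulator of senescence and of phosphate transport, led at 10.3, 8.46 and 10.3 FPKM in mms19-1, abo4 and Col. WRKY61 (AT1G18860), the most shifted of group IIb, stood at 2.95 FPKM in mms19-1, 3.26 FPKM in abo4 and 2.36 FPKM in Col. With WRKY31, WRKY42, WRKY47 and WRKY72, this subgroup ran between log2 ratios of -0.26 and 0.32 in mms19-1 and of -0.28 and 0.45 in abo4.

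**Figure D3:**
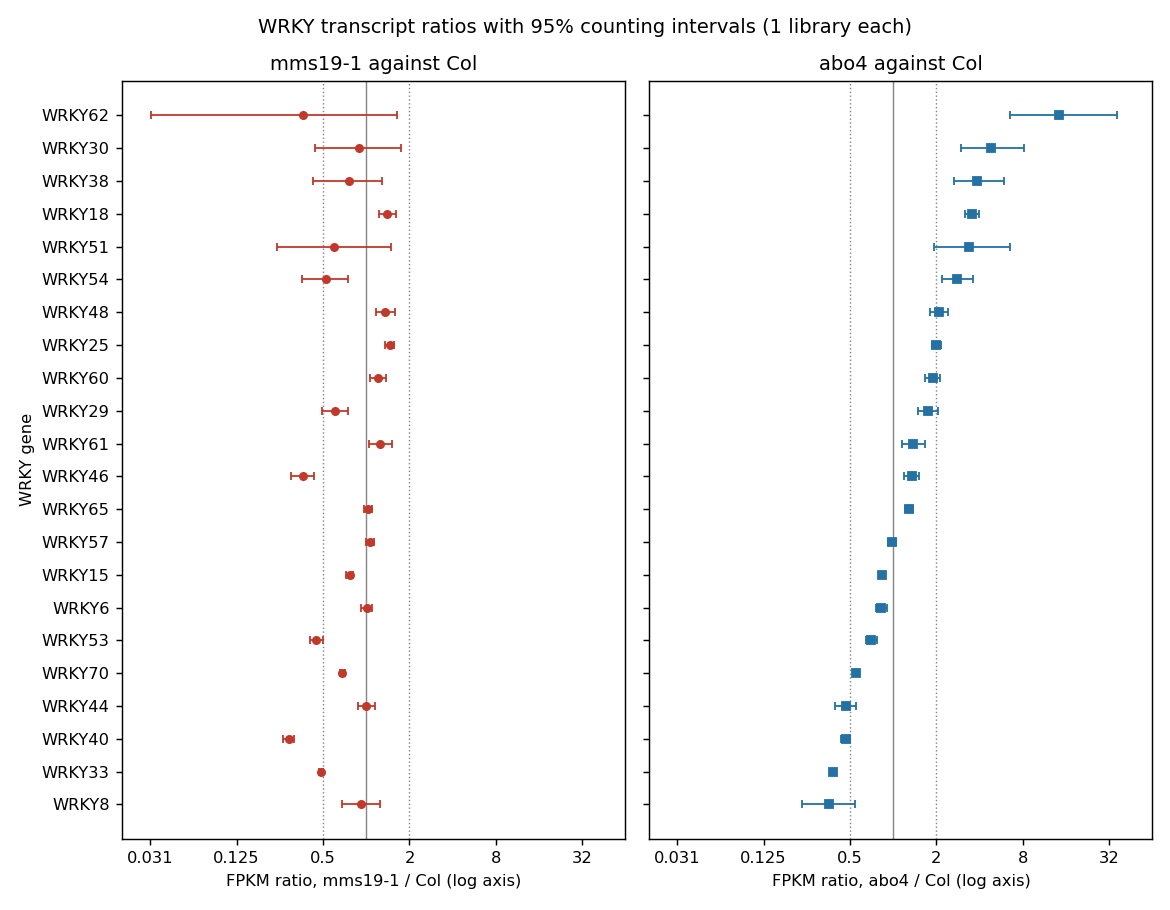
Ratio of FPKM in mms19-1 to Col (left) and in abo4 to Col (right) on log axes for the 22 WRKY genes that the naming rule selects, in order of the abo4 ratio; bars are 95% counting intervals on estimated reads and dotted lines mark 2-fold. WRKY62 heads the abo4 panel at 14.3-fold with an interval of 6.54 to 36.0, and WRKY33 and WRKY40 lie at or below the lower line in both panels.

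Set directly against mms19-1, abo4 had a higher value for 30 of the members and a lower one for 18. Of the 19771 expressed loci, 51.8% had a higher value in abo4 than in mms19-1. Of 48 members 9 (18.8%) were more than 2-fold higher in abo4 than in mms19-1, against 3.6% of loci above 0, and 2 (4.17%) were lower, against 3.26%. Among the 41 members with a mean of at least 1 FPKM, 5 were higher (12.2%, against 2.09% of loci) and 2 were lower (4.88%, against 2.31%). The 5 include WRKY38, whose mean reaches that level only through abo4. The counting interval of this ratio lay above 1 for 17 of the 41 and below 1 for 11, against 31.1% and 29.3% of loci. Of the higher members 6 belonged to group III (WRKY30, WRKY38, WRKY46, WRKY54, WRKY62 and WRKY63), and the others were WRKY18, WRKY51 and WRKY29. WRKY46 was 3.73-fold higher in abo4 than in mms19-1 (3.12 to 4.48), and WRKY54 was 5.32-fold higher (3.90 to 7.58). The lower members were WRKY44 and WRKY8. This comparison does not use Col, but it shares a mutant library with each of the comparisons above.

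The kinases and binding partners of WRKY proteins showed no change past the limit. None of 12 genes passed 2-fold in either mutant, and their median log2 ratio was -0.14 in mms19-1 and 0.00 in abo4. Of the 19771 loci with a mean of at least 1 FPKM, 1.03% were higher and 0.804% lower in mms19-1. In abo4 the shares were 1.92% and 1.9%, so a count of 0 among 12 genes is near that of loci at this level. MPK3, the kinase that phosphorylates WRKY33, was the most shifted, at 86.7 FPKM in mms19-1, 146 FPKM in abo4 and 150 FPKM in Col. SIB1, a cofactor of WRKY33 and WRKY57, stood at 9.67, 14.7 and 13.9 FPKM in mms19-1, abo4 and Col. Both lay below Col in mms19-1 and near it in abo4, inside the limit. MEK1, SIB2 and MKS1 lay below Col in both mutants. The log2 ratios in mms19-1 and abo4 were -0.39 and -0.42 for MEK1, -0.39 and -0.36 for SIB2, and -0.46 and -0.13 for MKS1. MPK3, MKK5 and MPK6 were also below Col in both, with abo4 log2 ratios of -0.03, -0.06 and -0.002.

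Reported target genes of WRKY proteins lay above Col in abo4 in 13 of 14 cases and above Col in mms19-1 in 4 of 14. Of the 19771 expressed loci, 47.9% lay above Col in abo4 and 44.9% in mms19-1. Some of the 14 were thinly read: SAG12, ALD1 and FRK1 had 4, 10 and 34 reads in abo4 and 0, 6 and 14 in Col. In abo4 4 were higher and 1 lower past the limit, with a median log2 ratio of 0.63, beside 3.87% and 2.58% of all loci. In mms19-1 0 were higher and 2 lower, with a median of -0.13, beside 2.38% and 1.64% of all loci. PR1, a marker of salicylic acid defence, stood at 1.54 FPKM in mms19-1, 43.7 FPKM in abo4 and 7.09 FPKM in Col. The mutants lay on opposite sides of Col, as for PR2, a glucanase, at 1.99 FPKM in mms19-1, 8.13 FPKM in abo4 and 4.71 FPKM in Col. NIMIN1, whose product binds the salicylic acid receptor NPR1, was higher in abo4 by a log2 ratio of 1.63, from 25 reads against 7 in Col. The senescence gene SAG13 was higher in abo4 by 1.16. The camalexin enzymes PAD3 and CYP71A13, both reported targets of WRKY33, parted in abo4: PAD3 stood at 2.58, 6.05 and 2.12 FPKM in mms19-1, abo4 and Col, and CYP71A13 at 5.12 FPKM in mms19-1, 2.65 FPKM in abo4 and 6.50 FPKM in Col. Of the genes that work with WRKY44 in trichomes and the seed coat, GL1 was lower in abo4, at 3.79 FPKM in mms19-1, 0.708 FPKM in abo4 and 2.51 FPKM in Col, and the other 5 of the list did not pass the limit in either mutant. GL2, listed here among the root markers, was also lower in abo4, at 6.86 FPKM in mms19-1, 2.61 FPKM in abo4 and 7.50 FPKM in Col.

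Genes that respond within minutes to touch and handling were low in mms19-1 beside the lower WRKY members. Of 18 such genes 16 lay below Col in mms19-1 and 5 passed the limit (TCH3, ERF6, CBF2, CBF1 and SZF1), against 1.64% of all loci, with a median log2 ratio of -0.76. The other 2 lay above Col, beside 44.9% of the 19771 expressed loci. In abo4 the median was -0.02, with RRTF1 and CML37 higher and TCH4 lower, against 3.87% and 2.58% of all loci. In abo4 8 of the 18 lay above Col, beside 47.9% of the 19771 expressed loci. Below Col in both mutants lay TCH4, SZF1, CBF1, ERF104, SZF2, TCH2, CBF2, ERF5, ZAT12 and ERF6. In that order, the abo4 log2 ratios were -1.17, -0.85, -0.82, -0.78, -0.73, -0.51, -0.32, -0.18, -0.03 and -0.01. The summed level of the list was 478 FPKM in mms19-1, 609 FPKM in abo4 and 731 FPKM in Col. WRKY33, WRKY40, WRKY46 and WRKY53 are themselves known to respond quickly to wounding or elicitors, and the part of handling in their values was not tested.

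**Figure D4:**
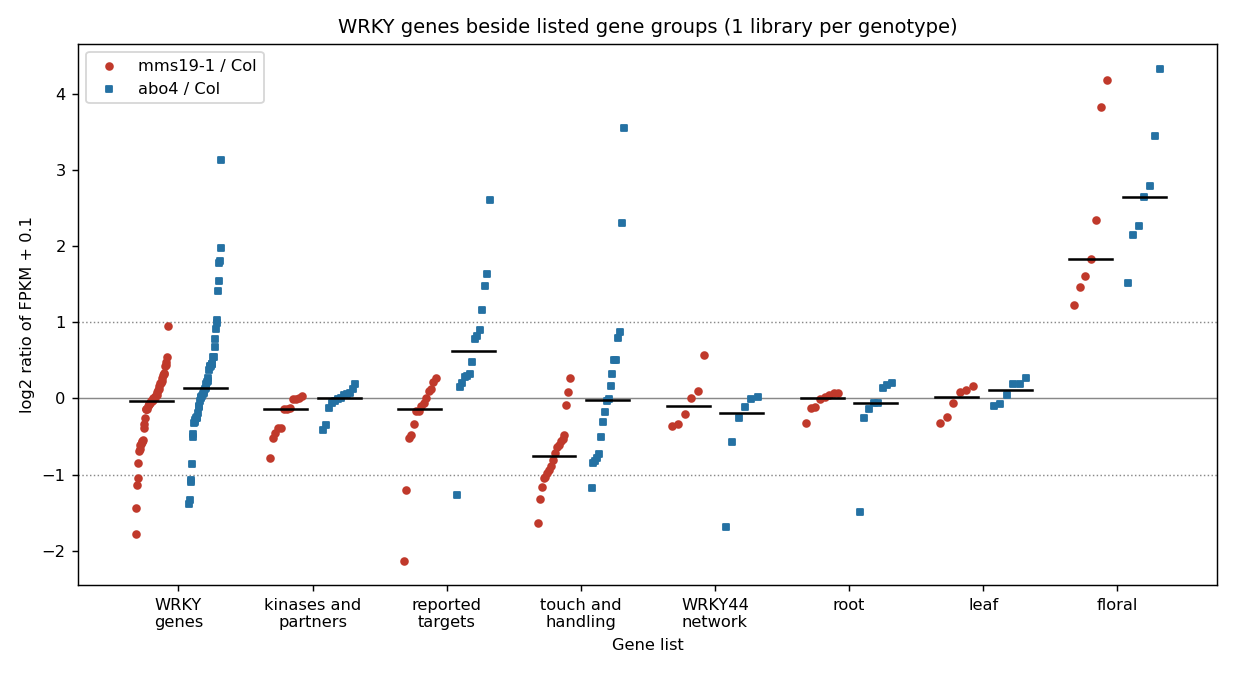
Log2 ratio of FPKM + 0.1 against Col for the 48 WRKY genes and for 7 listed gene groups, in mms19-1 (red circles) and abo4 (blue squares); each point is 1 gene, black bars are medians and dotted lines mark 2-fold. The touch and handling genes have medians of -0.76 in mms19-1 and -0.02 in abo4, the reported targets -0.13 and 0.63, and all 7 floral genes lie above the upper line in both mutants.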

How the data were processed

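Poly(A) RNA of 3 seedling libraries was sequenced. Per the labels and the study's methods, the authors aligned the reads to TAIR10 with TopHat2 2.0.12 and Bowtie and deposited FPKM values made with Cufflinks 2.0.1 and Cuffdiff, not log transformed. The strand of the library and the handling of reads with several alignments are not given in the sources used here. The table of 34133 entries held 33559 loci. Of several entries for a locus the one with the larger mean was kept, which left out 574.

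Ratios were log2(FPKM + 0.1), which understates the change of low genes, and a call was a ratio beyond 2-fold. Reads were recovered from FPKM, the effective transcript length in TAIR10.1 (fragments of 200 nt with an SD of 80 nt and a minimum of 49 nt) and the depth at which low values came closest to whole reads. At genes of 400 to 1500 nt, 52.6% of low values in mms19-1, 55.4% in abo4 and 50.4% in Col came within 0.05 of a whole read. At genes of 60 to 150 nt the shares were 87.9%, 85.8% and 87.0%. These reads are therefore estimates, and 1 read at 1500 nt is worth 0.0150, 0.0156 and 0.0138 FPKM in mms19-1, abo4 and Col. Intervals are exact (Clopper-Pearson) at 95%. The ratio and its interval were tried on simulated reads of known number and depth, at genes with many reads in Col. The recovery of reads from FPKM was not tested in this way, and neither were genes with few reads.

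Named genes are all members past 2-fold, those with an interval beyond 1.5-fold, and the most abundant and most shifted member of each subgroup; WRKY22, WRKY50, WRKY55, WRKY63 and the named genes of the other lists were picked with their values known. The members and lists were chosen with earlier results of these data known, and subgroups were assigned from general knowledge. Gene names, lengths and sequences come from the RefSeq annotation of TAIR10.1, in which all 48 members were found, and no coordinate of the deposited table was used. Promoter windows are the 250 nt before the annotated gene start. Python 3.11.15, numpy 2.4.6, pandas 2.3.3, scipy 1.17.1 and matplotlib 3.10.9 were used.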

Additional observations from a re-analysis of the deposited data

How the results depend on the processing

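No paired analysis was possible because each genotype has 1 library, and for the same reason no library could be left out. Adding 0.01 FPKM in place of 0.1 FPKM gave 1 member higher (against 0) and 6 lower (against 4) in mms19-1. Adding 1 FPKM gave 4 members higher (against 7) and 2 lower (against 4) in abo4, and 7 higher (against 9) and 0 lower (against 2) in abo4 than in mms19-1. Members with a mean of at least 1 FPKM gave 4 higher in abo4, and 5 higher in abo4 than in mms19-1. Both counts include WRKY38, which reaches that mean only through abo4. A limit of 1.5-fold gave 1 higher and 9 lower in mms19-1 (against 4 lower), 11 higher in abo4, and 15 higher in abo4 than in mms19-1. Calling every counting interval beyond 1 gave 10 higher and 11 lower in mms19-1, 21 higher and 15 lower in abo4, and 21 higher and 11 lower in abo4 than in mms19-1. Centring on the median of expressed loci, a shift of -0.02 in mms19-1 and -0.01 in abo4, gave 8 higher in abo4 and left the other counts as they were. Summing the entries of a locus could change no count, because each member has 1 entry.

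Of the 176 log2 ratios of named members under these alternatives, 170 moved by less than the half-width of the counting interval and none changed sign. The 170 include 44 from summing entries, which could not move. The other 6 all came with 1 FPKM added and in abo4, at 0.98 for WRKY30, 1.03 for WRKY38, 1.02 for WRKY54, 1.39 for WRKY62, 1.64 for WRKY18 and -0.70 for WRKY8. Depth limits the members below 1 FPKM, since WRKY62 in mms19-1 rests on about 2 reads and WRKY63 on 3.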

Other observations

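RefSeq gives a WRKY name, or the alias of a WRKY gene, to 24 further loci of the table that were not among the 48. Their levels were lower, with 12 of 24 at a mean of at least 1 FPKM, a highest mean of 12.6 FPKM, and WRKY64 and WRKY67 listed at 0 in all 3 libraries. Of these loci 1 was more than 2-fold higher in mms19-1 and 0 were lower, against 2.38% and 1.64% of all loci above 0. In abo4 0 passed the limit in either direction, against 3.87% higher and 2.58% lower. Over all 72 WRKY loci, the shares higher in abo4 and lower in either mutant are thus smaller than over the 48. The 1 was WRKY58 (AT3G01080), at 0.437 FPKM in mms19-1, 0.320 FPKM in abo4 and 0.117 FPKM in Col, from 36, 25 and 10 reads. Among the better expressed of them, WRKY49 (AT5G43290) stood at 6.99 FPKM in mms19-1, 4.19 FPKM in abo4 and 4.09 FPKM in Col, so that mms19-1 alone was high. WRKY71 (AT1G29860) stood at 1.37 FPKM in abo4, with log2 ratios of 0.07 in mms19-1 and 0.94 in abo4, so that abo4 alone was high, without passing the limit. RRS1 (AT5G45260), an immune receptor that carries a WRKY domain, held 5.65, 6.13 and 5.68 FPKM in mms19-1, abo4 and Col. These genes were picked with their values known.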
